A study of Mus musculus with 8 samples.

Results

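Gluconeogenesis is the route by which the liver builds glucose from lactate, amino acids and glycerol when no food comes in. Pcx encodes pyruvate carboxylase, which makes oxaloacetate from pyruvate in mitochondria, and Pck1 encodes the cytosolic phosphoenolpyruvate carboxykinase, which carries that oxaloacetate on to phosphoenolpyruvate. Fbp1 encodes fructose-1,6-bisphosphatase, the step that reverses phosphofructokinase. Slc37a4 encodes the transporter that brings glucose 6-phosphate into the endoplasmic reticulum, where glucose 6-phosphatase, the product of G6pc, frees the glucose for export. Glucocorticoids, released before the active phase and in fasting, and the forkhead factor FOXO1, which insulin signalling keeps out of the nucleus, are both known activators of Pck1 and G6pc.

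The data described here are the binding sites of the glucocorticoid receptor (GR) and of FOXO1 around the starts of these 5 genes, chosen by name from 21911 protein-coding genes. GR chromatin immunoprecipitation with sequencing (ChIP-seq) was done on livers of male C57BL/6J mice on regular chow, collected at lights-off, in 3 groups of 2 libraries. Control mice (ctrl.) ate freely and then only at night for the last week, calorically restricted mice (cal. res.) received less food, given at lights-off, and CORT mice were fed at night and injected with corticosterone, the main glucocorticoid of mice. No vehicle-injected group was analysed here. FOXO1 was mapped in cal. res. livers only, in 2 libraries merged before peak calling, so that its list carries no replicate spread. Merging GR regions that overlapped across libraries gave 51431 sites, of which 84 were centred within 50 kb of the start of a member gene (mm10, GENCODE M21). FOXO1 had 22 regions there, of 8068 in all. A site counts as held by a group only with a peak in each of the group's libraries. Site strength is given as the within-list percentile of the fold enrichment, in which 100 is the strongest region of that library's own list, because fold enrichment is not comparable between libraries. Sites are named by the distance of their centre from the gene start, negative upstream.

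The lists differed in length, from 12458 regions in ctrl. replicate 2 to 39136 in CORT replicate 2, and the members' counts moved with it: ctrl. replicate 2 had a peak at 23 of the 84 sites and CORT replicate 2 at 68. The other libraries had 53 (ctrl. replicate 1), 33 and 32 (cal. res.) and 42 (CORT replicate 1). The library names fell into 2 styles, with ctrl. replicate 2 and both cal. res. libraries in one and ctrl. replicate 1 and both CORT libraries in the other. The labels do not say what the styles stand for. For cal. res. against CORT, style and treatment cannot be told apart. For the rank differences from ctrl. given here, the value against the ctrl. library of the same style stands beside the pooled one. With 2 libraries against 2, the two-sided exact permutation test cannot go below p = 0.333, so no single site can pass 0.05. Groups are therefore read by whether their libraries overlapped, beside the share of all sites that did the same. Peak lists hold no RNA levels, so the liver label was not checked against marker genes.

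Sequence from some of the sites described below is shown first. The start sites of Fbp1 and Slc37a4 and the Slc37a4 +1.3 kb site are not included. Shown are 75 bp to either side of the GR summit of the library in which the site ranked highest. At the start of G6pc, the 150 bp that end just before the annotated start are shown. These are reference bases (GRCm38.p6, the sequence of mm10), 5′ to 3′ on the strand of the gene. Capitals mark matches, on either strand, to AGAACA (the hexamer bound by a GR monomer), TGTTTAC and TGTTTTG (forkhead and insulin response motifs), TGACG (the core of cyclic AMP response elements), TTCNNNGAA (STAT5), CAAAGT (HNF4A) or TTGCNNAA (C/EBP).
Pck1 −28.6 kb, chr2:173124386-173124535, plus strand: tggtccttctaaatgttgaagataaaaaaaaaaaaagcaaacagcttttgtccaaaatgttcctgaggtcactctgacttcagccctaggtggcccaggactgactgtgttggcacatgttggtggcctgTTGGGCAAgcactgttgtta
Pck1 −8.0 kb, chr2:173146828-173146977, plus strand: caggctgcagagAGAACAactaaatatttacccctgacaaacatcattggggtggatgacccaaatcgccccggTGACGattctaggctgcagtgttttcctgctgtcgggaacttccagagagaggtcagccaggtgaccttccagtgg
Pck1 start site, chr2:173152695-173152844, plus strand: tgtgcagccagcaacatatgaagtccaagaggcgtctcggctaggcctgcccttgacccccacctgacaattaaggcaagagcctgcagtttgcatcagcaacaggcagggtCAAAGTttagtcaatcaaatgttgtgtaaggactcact
G6pc −5.4 kb, chr11:101362351-101362500, plus strand: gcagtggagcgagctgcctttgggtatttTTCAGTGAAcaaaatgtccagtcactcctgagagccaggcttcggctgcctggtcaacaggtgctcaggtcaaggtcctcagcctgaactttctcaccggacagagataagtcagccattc
G6pc start site, chr11:101367411-101367560, plus strand: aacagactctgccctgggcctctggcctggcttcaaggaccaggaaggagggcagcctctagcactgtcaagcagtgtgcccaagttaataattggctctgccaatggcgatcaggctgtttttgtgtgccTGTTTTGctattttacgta
Fbp1 −20.1 kb, chr13:62908254-62908403, minus strand: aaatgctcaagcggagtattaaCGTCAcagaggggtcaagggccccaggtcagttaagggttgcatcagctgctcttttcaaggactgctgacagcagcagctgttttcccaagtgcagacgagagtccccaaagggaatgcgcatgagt
Pcx −17.4 kb, chr19:4493031-4493180, plus strand: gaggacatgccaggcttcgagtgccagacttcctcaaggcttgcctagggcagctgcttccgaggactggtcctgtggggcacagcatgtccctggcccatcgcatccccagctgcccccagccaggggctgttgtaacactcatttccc
Pcx start site, chr19:4510236-4510385, plus strand: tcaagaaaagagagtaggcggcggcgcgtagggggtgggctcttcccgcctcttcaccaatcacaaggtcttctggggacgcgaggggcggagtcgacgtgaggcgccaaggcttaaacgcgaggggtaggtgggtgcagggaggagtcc
Slc37a4 +3.4 kb, chr9:44401228-44401377, plus strand: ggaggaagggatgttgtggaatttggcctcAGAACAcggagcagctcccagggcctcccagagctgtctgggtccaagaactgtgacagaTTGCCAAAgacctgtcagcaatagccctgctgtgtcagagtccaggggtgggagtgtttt

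Each of the 5 genes had at least 1 site held by all 3 groups that also overlapped a FOXO1 region. Among all protein-coding genes 20.8% had such a site. Sites held by ctrl. lay within 50 kb of all 5 genes, beside 48.5% of protein-coding genes, sites held by cal. res. beside 47.2%, sites held by CORT beside 60.9%, sites held by all 3 groups beside 37.9%, and FOXO1 regions beside 33.3%. The number of sites per gene ran from 14 at Slc37a4 and 15 at Pck1 to 17 at G6pc, 18 at Pcx and 20 at Fbp1, where the median protein-coding gene had 3. Of the 84 sites, 47 were held by no group, a share that was not counted over all sites. All 3 groups held 21, 25.0% against 15.7% of all sites. Which gene stood highest depended on the count. Fbp1 had the most sites, a number that 1.26% of protein-coding genes reached. Pck1 had the most FOXO1 regions, 7, which 0.475% reached, and 3 of these lay in its start site. G6pc had the most sites held by all 3 groups, 6, which 1.14% reached. Pck1 and Slc37a4 had 5 such sites each, which 2.43% reached. Pcx was lowest by that count, with 2 around the upstream annotated start used here, which 18.9% of genes reached. A further annotated start of Pcx, 83.9 kb downstream, had 5 more such sites within 50 kb that this window left out. These positions are descriptions, since genes in GR-rich regions share sites with their neighbours: Slc37a4 had 6 other protein-coding starts within 50 kb, and only 4 of its 14 sites were nearer to it than to another gene.

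**Figure D1:**
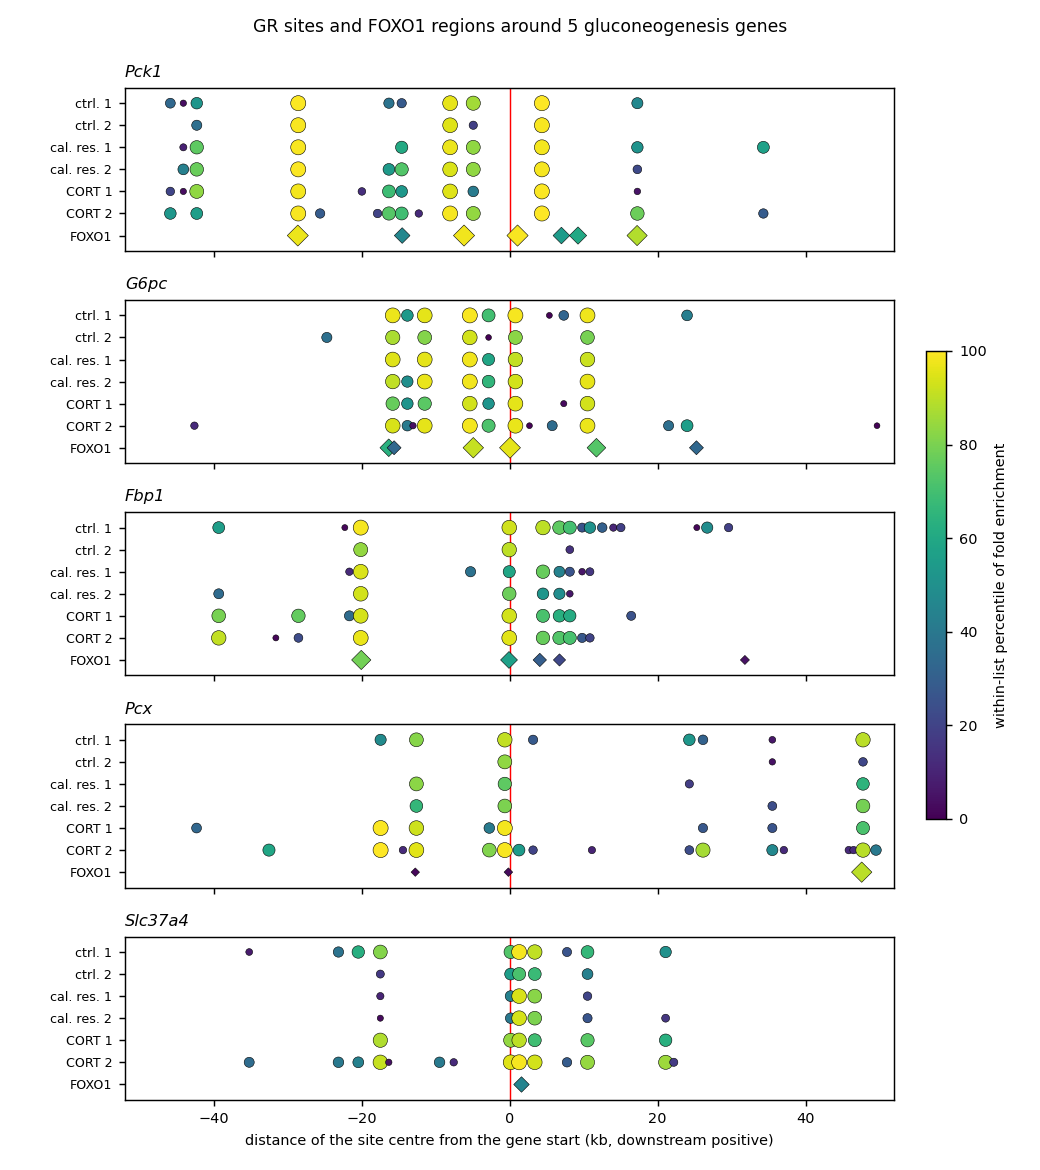
Each panel shows 1 gene, with the distance of the site centre from the gene start in kb on the x axis and the 6 GR libraries and the FOXO1 list on the y axis. Colour and size of a symbol give the within-list percentile of fold enrichment. The columns of full colour at Pck1 −28.6 kb and over the Pck1 start contrast with Pcx −17.4 kb, which ranked at 99.6 in both CORT libraries and had no peak in either cal. res. library. Presence of a peak at that Pcx site followed the name style of the libraries.

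Per group, ctrl. held 22 member sites, cal. res. 27 and CORT 36. At Pck1 cal. res. held 8 and CORT 9 against 5 in ctrl., and at Fbp1 5 and 7 against 3. Slc37a4 went from 5 sites in ctrl. to 5 under cal. res. and 6 under CORT, and G6pc from 6 to 6 and 7. Pcx had 3 sites in ctrl., 3 in cal. res. and 7 in CORT. With equal lists, the strongest 12458 regions of each library, ctrl. held 20, cal. res. 23 and CORT 26 of these sites. Pck1 then had 5, 7 and 5, so that CORT no longer exceeded ctrl. there, G6pc 6, 6 and 5, Fbp1 3, 4 and 6, Pcx 2, 3 and 4, and Slc37a4 4, 3 and 6. Of the 84 sites, 6 were held by cal. res. and not by ctrl., 7.14% where all sites gave 11.5%, and 14 by CORT and not by ctrl., 16.7% where all sites gave 24.3%. Neither share exceeded its background. All 6 of the former and 12 of the 14 latter had a peak in ctrl. replicate 1, and none had a peak in ctrl. replicate 2, the library with the shortest list. With no peak in either ctrl. library, cal. res. held 0 member sites, against 0.842% of all sites, and CORT held 2, against 4.28%. Those 2 were Fbp1 −28.5 kb, at percentiles of 75.9 and 22.9 in the CORT libraries, and Pcx −2.7 kb, at 41.2 and 81.1. Without ctrl. replicate 2, the sites of ctrl. rose to 53, and without CORT replicate 1 those of CORT to 68.

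**Figure D2:**
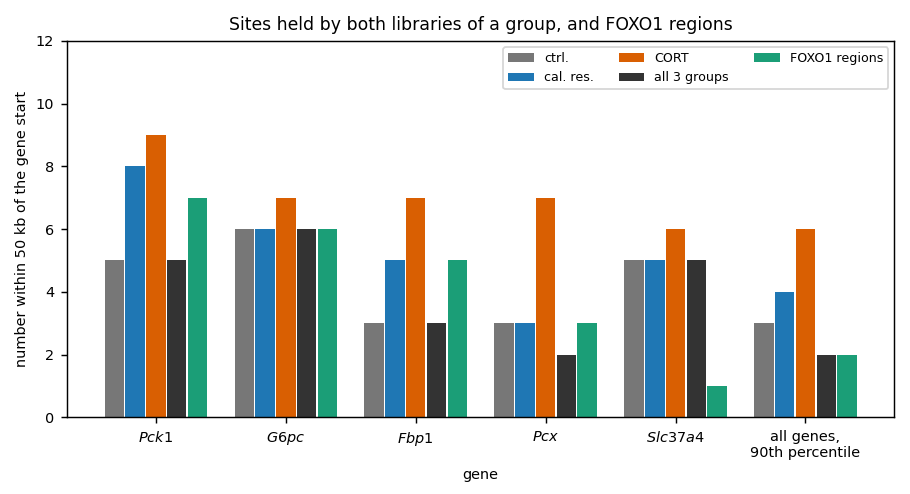
Bars give the number of sites held by both libraries of each group, of sites held by all 3 groups and of FOXO1 regions within 50 kb of each gene start. The rightmost bars give the 90th percentile over all protein-coding genes, which Pck1 and G6pc exceeded in all 5 counts. Slc37a4 did not exceed it in FOXO1 regions or in sites held by CORT. Fbp1 did not exceed it in sites held by ctrl., and Pcx not in those held by ctrl., by cal. res. or by all 3 groups.

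Pck1 carried the highest-ranked site of the 5 genes in every list except CORT replicate 1, where Pcx −17.4 kb ranked higher. Its start lay inside a single merged site of 10946 bp (chr2:173151939-173162884) that ran from upstream of the promoter across the gene. The site held 14 and 17 deposited summits in the ctrl. libraries, 11 and 18 under cal. res. and 16 and 18 under CORT, but the strongest summit fell in the promoter in all 6 libraries, 253 to 305 bp before the start, and the strongest FOXO1 summit lay 304 bp before it. The site ranked at 99.9 and 99.2 in ctrl., 98.1 and 98.6 under cal. res. and 99.4 and 99.8 under CORT. Both cal. res. libraries were thus just below the other 4, by 1.20 percentile points against ctrl. and 1.26 against CORT (exact permutation p = 0.333 for each), and by 0.877 against the ctrl. library of the same style. FOXO1 ranked at 98.9, so the Pck1 promoter was near the top of all 7 lists.

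The −28.6 kb site of Pck1 (chr2:173123860-173125113, in an intron of the antisense gene Ctcflos) was as strong. It ranked at 99.5 and 99.0 in ctrl., 99.1 and 99.3 under cal. res. and 98.3 and 99.1 under CORT, and at 96.9 for FOXO1, whose summit was 7 bp from the nearest GR summit. Its fold enrichment was 41.4 and 20.5 in ctrl., 47.0 and 43.7 under cal. res. and 33.5 and 47.8 under CORT, a spread within the ctrl. pair wider than the gaps between group means. Here both cal. res. libraries lay above both CORT libraries, by 0.529 points (exact permutation p = 0.333), which ranking by p-value ended, and overlapped with ctrl. The −8.0 kb site (chr2:173142625-173147398, intergenic) had its strongest GR summit 6116 to 6149 bp upstream in all 6 libraries. A FOXO1 summit lay 3 bp from the nearest of these, at the FOXO1 percentile of 97.8. It ranked between 94.2 and 98.8 in the 6 GR libraries, and no comparison separated the groups. The window shown above holds an AGAACA at base 13 and a TGACG at base 75.

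Weaker Pck1 sites varied more between libraries than between groups. The −4.9 kb site ranked at 86.3 and 18.5 in ctrl., 83.3 and 83.3 under cal. res. and 41.2 and 83.9 under CORT, so that the replicates of ctrl. and of CORT lay farther apart than any group means. Only the −42.3 kb site, in an exon of Ctcflos and closer to the start of Ctcfl, separated from ctrl. in both treatments, at 52.1 and 36.0 in ctrl., 75.2 and 77.1 under cal. res. and 83.3 and 55.8 under CORT. The differences were 32.2 and 25.5 points (exact permutation p = 0.333 for both). Against the ctrl. library of the same style they were 40.2 for cal. res. and 17.5 for CORT. Downstream, at +17.3 kb, a FOXO1 region at the 88.7 percentile met a weak GR site held by cal. res. and CORT, with percentiles of 51.3 and 22.0, and of 5.16 and 77.5.

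G6pc had a row of 6 sites held by all 3 groups between −15.8 and +10.5 kb, 4 of them with FOXO1. The strongest was not over the start but at −5.4 kb (chr11:101360459-101363909, intergenic), with summits 5127 to 5168 bp upstream in all 6 libraries. It ranked at 99.2 and 93.0 in ctrl., 97.8 and 97.7 under cal. res. and 93.1 and 98.2 under CORT, and at 91.2 for FOXO1. The groups overlapped in every comparison. The start site (chr11:101367189-101369502) ranked at 98.5 and 82.6 in ctrl., 90.8 and 93.1 under cal. res. and 95.9 and 96.7 under CORT, and at 95.7 for FOXO1. Both cal. res. libraries lay below both CORT libraries, by 4.34 points (exact permutation p = 0.333), and between the ctrl. libraries. GR summits fell 17 to 68 bp after the GENCODE start, in what that annotation calls the 5′ UTR, and the FOXO1 summit 18 bp after it. The RefSeq start of G6pc lies 155 bp farther downstream, so that by that annotation all of these summits are upstream of the gene. The bases just before the GENCODE start, shown above, hold a TGTTTTG.

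The other 4 G6pc sites held by all groups had wide spreads. At −11.5 kb the 6 libraries ranked at 95.9 and 81.4 (ctrl.), 95.7 and 96.6 (cal. res.) and 74.5 and 95.8 (CORT), with no FOXO1 region. At −15.8 kb FOXO1 was present at 63.4, and at +10.5 kb, beyond the gene's end, at 73.2, there 347 bp from the nearest GR summit. The low value was that of ctrl. replicate 2 or of CORT replicate 1 at these 3 sites. The −2.8 kb site, without FOXO1, was weaker and ranked at 69.7 and 0.0923 in ctrl., 58.7 and 65.4 under cal. res. and 51.8 and 71.7 under CORT. No G6pc site separated either treatment from ctrl. One of the 6 FOXO1 regions of G6pc, at +25.2 kb, met no GR site.

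Fbp1 showed 2 unlike sites. The −20.1 kb site (chr13:62907949-62908849, intergenic) overlapped between the groups, at 98.8 and 84.0 in ctrl., 94.4 and 93.0 under cal. res. and 93.4 and 96.7 under CORT, with a FOXO1 region at 78.6 whose summit coincided with that of a GR library (0 bp). The start site (chr13:62887117-62889540) ranked at 92.9 and 90.2 in ctrl., 58.7 and 77.4 under cal. res. and 93.3 and 95.7 under CORT. Both cal. res. libraries were below all 4 others, by 23.5 points against ctrl. and 26.4 against CORT (exact permutation p = 0.333 for both), and by 22.2 points against the ctrl. library of the same style. With the same number of regions in every list these became 39.4 and 39.9 points below. CORT lay 2.93 points above ctrl., and 1.60 above the ctrl. library of the same style, a separation that was lost with equal lists. FOXO1 overlapped the start site at 56.3.

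In the introns of Fbp1, 2 sites separated the treatments. The +6.7 kb site overlapped a FOXO1 region at 21.6. Its GR percentiles were 44.5 and 48.5 under cal. res. and 63.1 and 72.8 under CORT, 21.4 points apart (exact permutation p = 0.333). With equal lists they were 1.15 points apart and overlapped. At +8.1 kb they were 25.9 and 6.27 against 61.1 and 71.1. Ctrl. replicate 1 had a peak at both, at 75.3 and 69.9, while ctrl. replicate 2 had none at the former and 14.3 at the latter. Ctrl. replicate 1 was the only library with a peak at 7 further sites around Fbp1, most of them in introns or toward Fbp2, the muscle isoform next door.

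At the start of Pcx and at 2 sites upstream, both CORT libraries ranked above every other library with a peak. Its start site (chr19:4508429-4511221) ranked at 90.8 and 83.4 in ctrl., 75.2 and 80.3 under cal. res. and 98.4 and 98.9 under CORT, so that the 3 groups did not overlap at all. CORT was 11.6 points above ctrl. and cal. res. 9.30 below it (exact permutation p = 0.333 for each). Within the styles the differences were 7.93 above and 5.61 below. The strongest summit lay between positions −191 and −153 bp from the start in the ctrl. and CORT libraries, and at 131 and 140 bp in the 2 cal. res. libraries. FOXO1 was near the bottom of its list there, at 2.44. The bases around the CORT summit, shown above, hold no match to any of the motifs, which says only that these letters are not in this window.

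The −17.4 kb site of Pcx (chr19:4492527-4493554, intergenic, nearer to the start of 2010003K11Rik) was near the top of both CORT lists, and of the other 4 libraries ctrl. replicate 1 alone had a peak there. In CORT it had a fold enrichment of 53.7 and 71.4 and a percentile of 99.6 in both libraries, order 130 of 29473 regions and 139 of 39136. In ctrl. replicate 1 its fold enrichment was 5.55, at the 47.7 percentile, and ctrl. replicate 2 and both cal. res. libraries had no peak. The libraries with a peak were thus those of one name style, and the libraries without a peak those of the other. No FOXO1 region overlapped it. Among all sites, 208 reached the 99 percentile in both CORT libraries, and this was the 1 among them with no peak in either cal. res. library. This count was made after the values were seen. The summits lay within 17343 to 17376 bp upstream in the 3 libraries with a peak. At −12.6 kb, near the start of 2010003K11Rik, cal. res. was at 82.5 and 66.2 and CORT at 92.3 and 95.7, 19.6 points apart (exact permutation p = 0.333). FOXO1 ranked at 1.72 there. By contrast the intronic +47.8 kb site, the only strong FOXO1 region of Pcx at 89.7, did not separate any groups, at 89.5 and 21.4 in ctrl., 64.7 and 79.1 under cal. res. and 71.3 and 89.1 under CORT.

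Slc37a4 had 3 adjoining sites within its first kilobases. The start site (chr9:44396528-44397454) ranked at 72.8 and 55.1 in ctrl., 43.6 and 40.0 under cal. res. and 83.8 and 95.2 under CORT, again with no overlap of the 3 groups. Cal. res. was 22.1 points below ctrl. and CORT 25.6 above it, and 47.7 points separated the treatments (exact permutation p = 0.333 for each). Within the styles the differences from ctrl. were 13.3 below and 16.7 above. At +1.3 kb (chr9:44397579-44398700) the order was not seen: the percentiles were 98.4 and 71.3 in ctrl., 93.9 and 93.5 under cal. res. and 89.9 and 98.6 under CORT. This was the only Slc37a4 site with FOXO1, at 45.1 and 3 bp from a GR summit, and 1 of the 3 RefSeq starts of the gene, 1502 bp after the GENCODE start, lies in it. The +3.4 kb site, in an intron, ranked from 67.7 to 93.0 without separating the groups, and the window shown above holds an AGAACA and a C/EBP core.

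Sites over 2 neighbouring starts of Slc37a4 had the same order of groups as its own start site. At −17.5 kb, over the start of Hyou1, which encodes a chaperone of the endoplasmic reticulum, the percentiles were 81.3 and 16.5 in ctrl., 10.4 and 2.60 under cal. res. and 88.2 and 91.1 under CORT, the widest gap between treatments among the members, 83.1 points (exact permutation p = 0.333). The cal. res. peaks there were weak, with fold enrichments of 3.56 and 2.98. With q of at most 0.01 or with equal lists this comparison gave no value. At +10.5 kb, over the start of Trappc4, they were 66.7 and 43.3, 20.6 and 26.5, and 73.9 and 84.3. In both, cal. res. was below CORT without overlap, and the ctrl. mean lay between them.

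Over the starts of all 5 members both cal. res. libraries ranked below both CORT libraries. Of 3132 sites over protein-coding starts with a peak in all 4 libraries, 71.9% did the same and 1.92% the reverse, so 5 of 5 is near the background for start sites. In whole liver, a change in the share of cells with GR at a site and a change in GR per cell cannot be told apart. Against ctrl., cal. res. was below at 4 of the 5, all but G6pc, where all start sites gave 38.7%, and above at none (4.89%). CORT was above ctrl. at 3 of the 5 (Fbp1, Pcx and Slc37a4), where all start sites gave 38.0%, and below at none (5.05%). With equal lists cal. res. remained below CORT at all 5 sites, beside 49.8% of start sites, and below ctrl. at 4, beside 37.7%, while CORT was above ctrl. at 2, beside 32.9%. With q-values of at most 1e-05, cal. res. and ctrl. overlapped at the start sites of Pcx and Slc37a4.

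**Figure D3:**
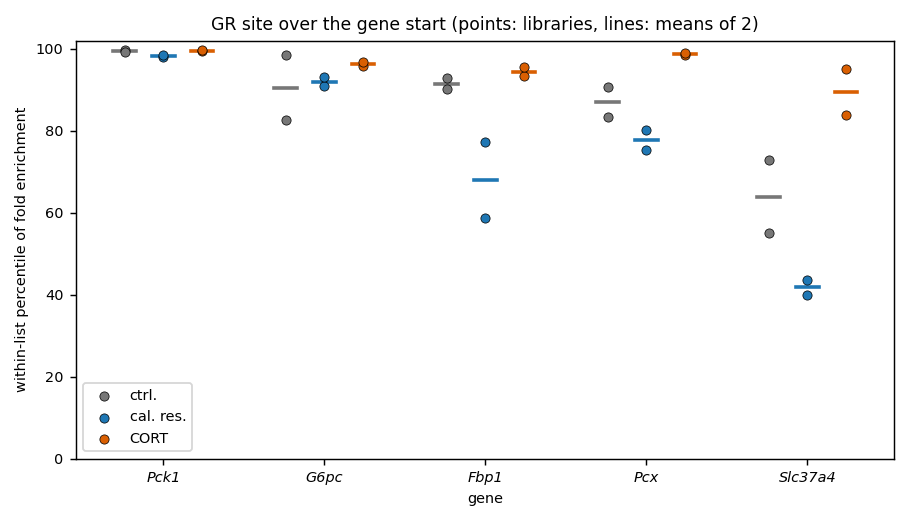
The y axis gives the within-list percentile of the GR site over the start of each gene, with points for single libraries and lines for the mean of 2. At Pcx and Slc37a4 the 3 groups do not overlap, and at Pck1 all 6 libraries lie at 98.1 or above.

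Over all member sites, and not only the start sites, a smaller share separated the treatments. Of 26 sites with a peak in all cal. res. and CORT libraries, cal. res. was below CORT without overlap at 10, beside 43% of all such sites, and above at 1, beside 9.09%. Among these, 18 held no protein-coding start. At those 18, cal. res. was below CORT at 2, beside 33.6% of all sites without a start, and above at 1, beside 11.4%. Of 21 sites with a peak in all ctrl. and cal. res. libraries, cal. res. was below at 6, beside 21.1% of all sites, and above at 1, beside 11.4%. Of 22 sites CORT was above ctrl. at 7, beside 27.1%, and below at 0, beside 5.72%. With equal lists these splits became 6 below and 4 above of 19 (cal. res. against CORT), 4 below and 3 above of 18 (cal. res. against ctrl.), and 3 above and 3 below of 18 (CORT against ctrl.). The median difference was 1.42 points for cal. res. minus ctrl., 7.97 for CORT minus ctrl. and −1.39 for cal. res. minus CORT, where all sites gave 0.0422, 8.23 and −7.50. Against the ctrl. library of the same style the median was 5.45 over 21 sites for cal. res. and −0.54 over 34 sites for CORT. With equal lists they were 0.203, 0.317 and 2.14, and without ctrl. replicate 2 the value for cal. res. minus ctrl. was −6.52. Each of the 3 medians thus changed sign under at least 1 of these settings.

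**Figure D4:**
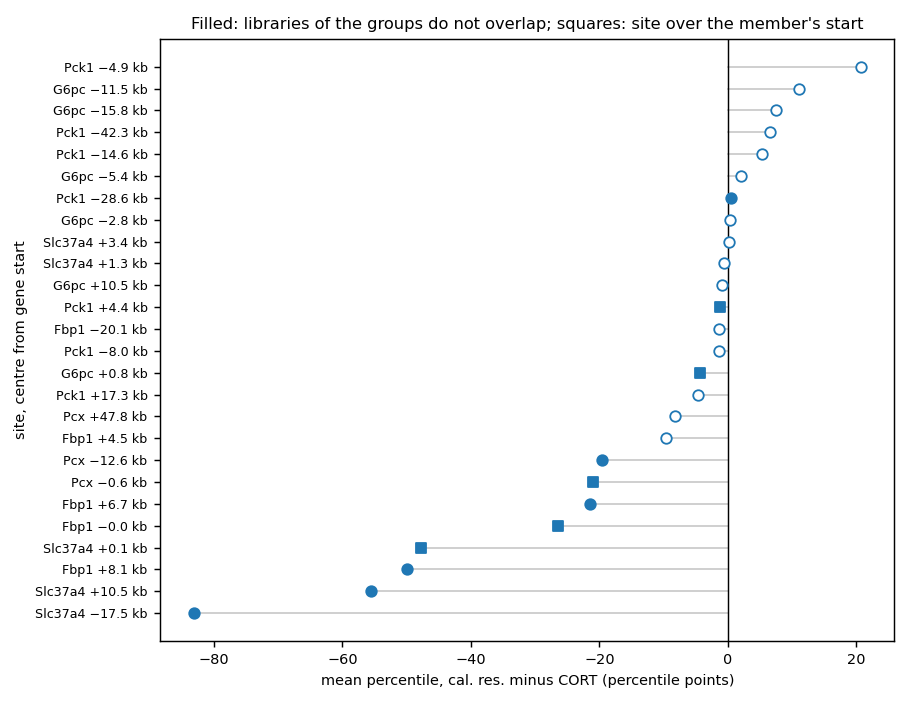
Each point is 1 of the 26 member sites with a peak in all cal. res. and CORT libraries, and the x axis gives the mean percentile of cal. res. minus that of CORT. Filled symbols mark the 11 sites whose libraries did not overlap and squares the 5 start sites, all on the negative side, from −1.26 points at Pck1 to −47.7 at Slc37a4.

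FOXO1 regions overlapped 17 of the 84 member sites, 20.2% against 13.9% of all GR sites. All 17 were held by cal. res. and by CORT, and 12 by ctrl. as well. Of the 7133 GR sites that overlapped FOXO1 anywhere, 4104 were held by all 3 groups. The shares of these held by cal. res. or by CORT were not counted. The 5 member sites not held by ctrl. lacked a peak in ctrl. replicate 2 alone, the shortest list. Of the 21 sites held by all 3 groups 12 met FOXO1, 57.1%, near the 50.7% of all such sites. Conversely 20 of the 22 FOXO1 regions met a GR site, 90.9% against 93.6% of the whole FOXO1 list. In 15 of the 17 sites the GR summit of at least 1 library lay within 100 bp of the FOXO1 summit. The distance to the nearest GR summit of any library had a median of 8 bp. It was not computed for all GR sites that overlap FOXO1. The strongest FOXO1 region ranked at 98.9 for Pck1, 95.7 for G6pc, 89.7 for Pcx, 78.6 for Fbp1 and 45.1 for Slc37a4. The 7 regions of Pck1 ran from 46.4 upward, the 6 of G6pc from 33.5, the 5 of Fbp1 from 4.49 and the 3 of Pcx from 1.72, so each gene with several regions also had weak ones. FOXO1 was not mapped in ctrl. or CORT, so whether it sat at these sites there was not measured.

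**Figure D5:**
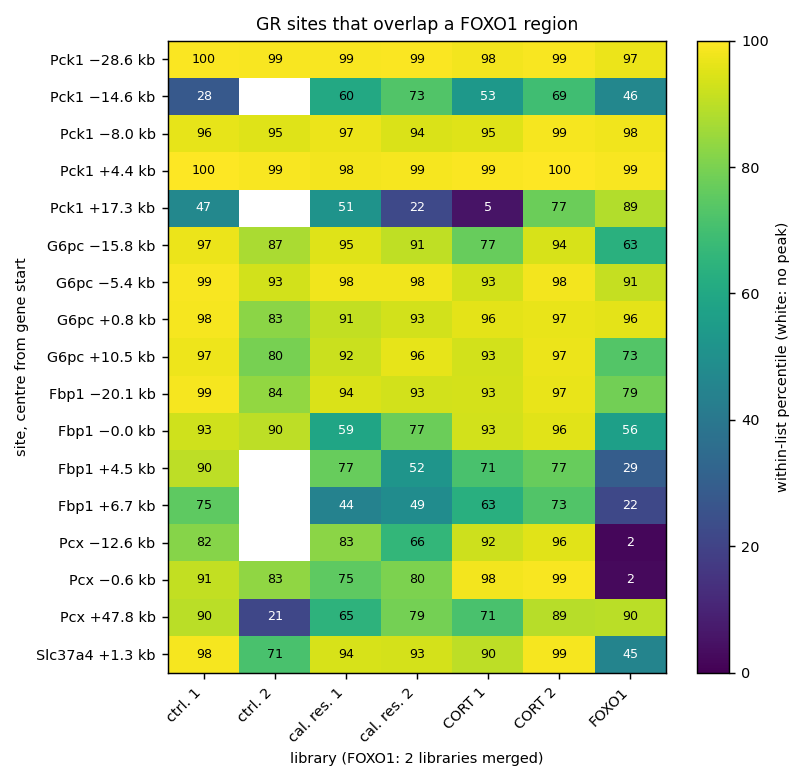
Rows are the 17 member sites that overlap a FOXO1 region and columns the 6 GR libraries and the FOXO1 list. Cell values and colour give the within-list percentile, and white cells have no peak, all 5 of them in ctrl. replicate 2.

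Over all 84 member sites, most sequence matches were close to or below their share at all GR sites. In 200 bp around the summit, AGAACA was found at 11 of 84 sites, 13.1% against 18.4% of all GR sites, and the perfect palindrome made of AGAACA, 3 bases and its reverse complement at 0, against 0.0642%. TGTTTAC was found at 4 sites (4.76% against 5.19%) and TGTTTTG at 6 (7.14% against 6.57%). TGACG was found at 10 (11.9% against 11.5%), TTCNNNGAA at 8 (9.52% against 8.16%), CAAAGT at 7 (8.33% against 16.96%) and TTGCNNAA at 12 (14.3% against 15.1%). At the 21 sites held by all 3 groups, TGACG was found at 7, beside 15.97% of all sites held by all 3, and TGTTTTG at 3, beside 5.73%, while CAAAGT was found at 3, beside 19.2%, and AGAACA at 2, beside 20.01%. In windows of 100 bp TGACG was found at 7 of the 84 sites (8.33% against 6.16%) and at 5 of the 21, beside 8.77%. These counts are matches of letters and do not show that a factor was bound.

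Of the other 24 enzymes and carriers of the route (the remaining glycolytic enzymes that run in both directions, lactate and malate dehydrogenases, aminotransferases, mitochondrial carriers, isoforms of the members and the glucose transporter Slc2a2), 22 had a site held by ctrl. within 50 kb (48.5% of all protein-coding genes did), 22 by cal. res. (47.2%) and 23 by CORT (60.9%). A site held by all 3 groups lay beside 20 of them (37.9%), 14 had one that overlapped FOXO1 (20.8%), and 16 had a FOXO1 region (33.3%). Slc2a2, the glucose transporter of hepatocytes, had 6 sites held by all 3 groups and 5 FOXO1 regions, and Slc25a13, the mitochondrial aspartate-glutamate carrier, had 4 and 5. Gpt2, an alanine aminotransferase, had 12 sites held by CORT against 5 each in ctrl. and cal. res. By contrast G6pc2, the isoform of pancreatic islets, had no site held by any group. Fbp2 shares sites with Fbp1, since their starts lie within 50 kb of each other.

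The genes whose pattern was most like that of each member were sought among protein-coding genes on other chromosomes. Neighbours on the member's own chromosome, such as Fbp2 for Fbp1, which has the same values, were thus left out. Euclidean distance was taken over 7 values, the highest percentile within 50 kb in each of the 6 GR lists and in the FOXO1 list. For Pck1 the nearest genes were Map2k6, at a distance of 0.640, and Slc12a3 and Herpud1, at 0.856 each, where the median gene lay at 188. For G6pc they were Tmem151b, Nfkbie and Slc35b2, at 2.67 each. Fbp1 was closest to Igfbp6, at 4.34, and to Tbc1d16 and Ccdc40, at 4.78. Pcx was closest to Gcgr, which encodes the glucagon receptor, at 5.45, and to Foxk1 and Ap5z1, at 9.68. For Slc37a4 the nearest were Abca2, at 7.02, Slc9a8, at 7.08, and Mab21l3, at 8.06. Equal distances mark neighbours that share the same sites.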

How the data were processed

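GR ChIP-seq peaks of 6 liver libraries and 1 FOXO1 list from 2 merged libraries were analysed. Per the methods and labels, the authors aligned reads to mm10 with BWA, removed duplicates with Picard, called peaks with MACS2 and used bedtools, SAMtools and deepTools. The study's methods state the tool versions, which are not repeated here. GR peaks were called per library. The largest q-value was near 0.1 in each GR list (0.0994 to 0.0998) and 9.84e-06 in the FOXO1 list. The deposited fold enrichment, a ratio of pileup to local background, was ranked within each list. Alternatives used the p-values and q-values that were deposited as −log10, and the deposited score was not used. The read total of each library was not analysed here, so differences in depth between libraries are unknown.

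Rows with the same start and end were reduced to the highest fold, and GR regions sharing at least 1 bp were merged into sites. No peak on chromosomes 1 to 19, X and Y ran past the reference ends. Genes came from the GENCODE M21 basic set and sequences from GRCm38.p6. Two-sided exact permutation tests compared percentiles per site. Replicates are 2 biological replicates a group. The steps were tested on simulated data. Named were all 5 members and, for each, the site nearest the start, the strongest site and sites with FOXO1. Other sites named were chosen after their values were seen. The members and lists were chosen with earlier results of these data known. Alternatives were windows of 20 and 100 kb, nearest gene, q of at most 0.01 or 1e-05, equal lists of 12458 regions, either library, summits within 100 bp, sites of at most 1000 bp, ranks by p-value, 1 name style, the replicate number as a block, each library left out, 50% overlap, the stronger 50% of FOXO1 regions and motif windows of 100 bp. Python 3.11.15, NumPy 2.4.6, pandas 2.3.3, pysam 0.24.0 and matplotlib 3.10.9 were used.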

Additional observations from a re-analysis of the deposited data

How the results depend on the processing

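The number of member sites moved with how a site was defined. A window of 100 kb gave 39 sites held by ctrl., 43 by cal. res., 63 by CORT and 33 by all 3 groups, and a median rank difference of −8.93 for cal. res. minus CORT. Counting a site as held by either library gave 54 for ctrl., 74 for CORT and 35 for all 3 groups. Sites of at most 1000 bp left 4, 7 and 14 for ctrl., cal. res. and CORT, 4 for all 3 groups and 3 with FOXO1, with median differences of 16.6 (cal. res. minus ctrl.) and 17.9 (CORT minus ctrl.) over 4 sites. The stronger 50% of FOXO1 regions overlapped 11 member sites. With each library left out in turn, sites held ranged from 22 to 53 for ctrl., 27 to 33 for cal. res., 36 to 68 for CORT and 21 to 26 for all 3 groups. The median difference then ranged from −6.52 to 7.40 for cal. res. minus ctrl., turning direction without ctrl. replicate 2, from −0.54 to 15.5 for CORT minus ctrl., and from −7.26 to 0.29 for cal. res. minus CORT, changing sign without ctrl. replicate 2 and without CORT replicate 2, respectively. Motif windows of 100 bp left 7 sites with AGAACA, 2 with TGTTTAC, 2 with TGTTTTG, 5 with the STAT5 motif and 6 with the C/EBP motif, as a shorter window must.

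The groups share replicate numbers, but with 2 numbers a group pairing could not be shown: differences between replicates correlated at −0.0468, −0.125 and 0.0737 across 8097 sites for the 3 pairs of groups. With the replicate number as a block, the exact sign-flip p cannot go below 0.5. The difference at the Slc37a4 start stayed at −47.7 points for cal. res. minus CORT (exact sign-flip p = 0.5). At every site whose groups did not overlap, no alternative that was run per site turned the direction, where it gave a value. Run per site were stricter q-values, equal lists, ranks by p-value, the replicate block and each library left out. Summits within 100 bp and sites of at most 1000 bp were not run per site. Leaving out a library or using the replicate block could not have turned the direction, since the libraries of the compared groups did not overlap. Stricter q-values and equal lists gave no value at some of these sites. Without read totals per library, a missing peak cannot be told from a peak under the caller's threshold.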

Other observations

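Pcx has a further annotated start 83.9 kb downstream of the one used (at position 4594346 of chromosome 19), outside the 50 kb window. Of 23 GR sites within 50 kb of that start and beyond the window of the other, ctrl. held 5, cal. res. 6 and CORT 9, all 3 groups held 5, and 2 overlapped FOXO1. The site 5.23 kb upstream of it ranked at 96.9 and 96.2 in ctrl., 97.8 and 98.3 under cal. res. and 93.7 and 98.9 under CORT and overlapped FOXO1. It was stronger in cal. res. than any Pcx site within the window. The site over the downstream start ranked at 88.0 and 73.0 in ctrl., 32.3 and 67.9 under cal. res. and 92.9 and 95.4 under CORT, so that both cal. res. libraries were below the other 4. The ctrl. library of the same style was the one at 73.0. Of all sites over protein-coding starts, 71.9% had cal. res. below CORT without overlap and 38.7% had it below ctrl. The downstream start was examined after the values near the upstream one were seen.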
